A study of Mus musculus with 52 samples.

Results

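Type 1 conventional dendritic cells (cDC1) that received prostaglandin E2 (PGE2) with an EP4 antagonist were compared with cDC1 that received PGE2 with the antagonists labelled EP2 plus EP4. The comparison held 8 of the 52 libraries of the series, 4 in each group. They were taken by their sample labels, with earlier results of these data known. All groups used here were cells grown from C57BL/6 bone marrow with FLT3 ligand and GM-CSF over 14 days, sorted as CD103+ and kept 4 h in culture. PGE2 was given at 100 ng/ml and each antagonist at 5 uM, starting 30 min before PGE2. Beside the 2 groups stand untreated cells, PGE2 alone, PGE2 after the EP1 antagonist SC-19220 and PGE2 after the EP2 antagonist PF-04418948, each with 4 libraries. PGE2 after the EP3 antagonist L-826,266, again with 4 libraries, entered the fit but is not compared here. The EP4 antagonist was L161,982. A gene list and a response score come from 2 more groups of 4 libraries, cells kept 4 h in BRAFV600E CM, from control tumour cells or from Ptgs1/Ptgs2-/- cells, which lack both cyclooxygenase genes. That CM is medium conditioned by melanoma cells is known from the study, not from the labels. The labels name no vehicle control and give no age of the mice.

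The labels of the combined group disagree. The title and description name EP2 and EP4 antagonists, whereas the treatment field names SC-19220, which is the compound of the EP1 antagonist group, together with L161,982. Which compound joined L161,982 cannot be settled from the labels, so the group is called the group labelled EP2 plus EP4 antagonist, and the EP1 and EP2 antagonist groups are both given beside it.

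PGE2 acts through 4 receptors, EP1 to EP4, encoded by Ptger1 to Ptger4. EP2 and EP4 couple to the stimulatory G protein, which activates adenylyl cyclase, and the resulting cAMP activates protein kinase A and the transcription factor CREB. EP4 can also signal through phosphoinositide 3-kinase, EP3 lowers cAMP and EP1 raises calcium. In dendritic cells cAMP signals are known to alter cytokine output, migration and the program that lets cDC1 take up dead cells and present their antigens to CD8 T cells.

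Library totals ran from 42666 to 320979 counts in the EP4 antagonist group and from 317756 to 438491 in the group labelled EP2 plus EP4, so depth moved with the group. EP4 antagonist A, at 42666 counts, was the shallowest of all 52 libraries (1 count in it equals 22.6 CPM, counts scaled to an adjusted library total of 1000000). The share of mitochondrial transcripts was 1.66% to 2.59% against 1.59% to 1.90%, and the 50 most abundant genes took 35.2% to 37.0% against 31.7% to 33.3% of the counts. The part of depth, mitochondrial share and gene concentration in the results was not tested beyond the fits at equal depth given below. Of the 22 cDC1 genes on the marker list all were detected in both groups, and their summed level was 12200 to 14300 CPM against 12400 to 12900 CPM. That sum includes Plet1, which PGE2 raises and which fell from a mean of 4964 to 1389 CPM. The like sums therefore do not show that the other members kept their level, and some of them rose, as given below. Markers of granulocytes and of lymphocytes summed to at most 22.6 CPM in any of these 8 libraries. Markers of the other dendritic cell types summed to 45.2 to 110 against 37.4 to 78.6 CPM for cDC2 and to 112 to 271 against 101 to 201 CPM for plasmacytoid cells, and none of their 3 tested genes was called.

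Adding the second antagonist changed a large share of the genes that PGE2 itself changes, in the opposite direction. Of 5754 genes tested, 315 were called at an adjusted p of at most 0.05 (5.47%), 118 higher (2.05%) and 197 lower (3.42%) than with the EP4 antagonist alone. By at least 1.5 on the log2 scale, 54 were lower and 16 higher. Without EP4 antagonist A the count was 275, with 89 higher and 186 lower. With that library left out and the other 7 thinned to 193641 counts each, it was 203, with 66 higher and 137 lower. Without EP4 antagonist C it was 205, with 64 higher and 141 lower. Scaling by library totals alone turned the split to 186 higher and 172 lower.

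**Figure D1:**
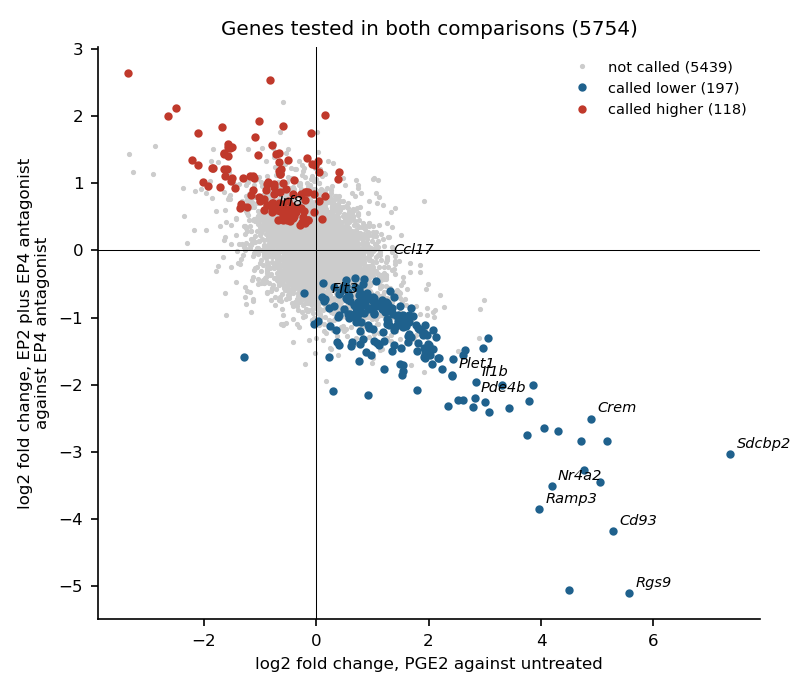
Each point is 1 of the 5754 genes, with the log2 fold change of PGE2 against untreated cells on the horizontal axis and that of the EP2 plus EP4 label against EP4 antagonist on the vertical axis; blue points are the 197 genes called lower and red points the 118 called higher in the vertical comparison. The called genes lie mostly in the quadrants where the signs differ, with Rgs9, Cd93, Ramp3, Nr4a2 and Crem at the lower right.

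PGE2 alone against untreated cells shares no library with this comparison and called 493 genes (8.57%), 300 higher (5.21%) and 193 lower (3.35%). Of the 300 genes that PGE2 raised, 149 fell with the second antagonist, none rose, and 284 had a negative log2 fold change, with a median of -0.81 beside 0.02 over all genes tested. Of the 193 genes that PGE2 lowered, 61 rose and none fell, with a median of 0.53. These 149 and 61 genes made up 75.6% of the 197 lower and 51.7% of the 118 higher genes. The other 48 lower and 57 higher genes were not called for PGE2. Without EP4 antagonist A the counts were 148 and 56, and at equal depth 113 and 39.

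A second list came from the comparison of control CM with CM of cells lacking Ptgs1 and Ptgs2, the genes whose enzymes start prostaglandin synthesis. That comparison called 227 genes (3.95%), 140 higher (2.43%) and 87 lower (1.51%) with control medium. Of the 140 higher genes, 98 fell when the second antagonist was added (70.0%), and of the 87 lower genes 37 rose (42.5%). In the EP4 antagonist group 103 of the 140 were still above untreated cells, with a median log2 fold change of 1.20. In the group labelled EP2 plus EP4 7 of the 140 were above untreated cells, with a median of 0.28. Against untreated cells the EP4 antagonist group had 4.19% of all genes higher and 2.8% lower, and the group labelled EP2 plus EP4 0.608% higher. Both comparisons use the untreated libraries. Library B of the Ptgs-deficient medium stood apart from its group, and lists made without it held 193 and 112 genes, of which 121 fell (62.7%) and 44 rose (39.3%).

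A PGE2 response score, the mean log2 level of these 140 genes minus that of the 87, was set to average 0% in untreated cells and 100% with PGE2. The EP4 antagonist libraries A to D stood at 90.3%, 88.2%, 89.7% and 88.0% (mean 89.1% ± 1.1, SD, n = 4). The libraries labelled EP2 plus EP4 stood at 14.3%, 16.0%, 22.2% and 21.5% (18.5% ± 3.9). The groups did not overlap, and the EP4 antagonist alone left most of the score in place in every library. The EP2 antagonist without EP4 blockade gave 65.6% to 74.2% (69.2% ± 3.8), and the EP1 antagonist 99.0% to 101.9%. The drop of 70.6 points on top of the EP4 antagonist stood beside a drop of 30.8 points for the EP2 antagonist on PGE2 alone. Untreated libraries ranged from -4.6% to 9.9%, so all 4 libraries of the group labelled EP2 plus EP4 lay above the highest untreated library.

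**Figure D2:**
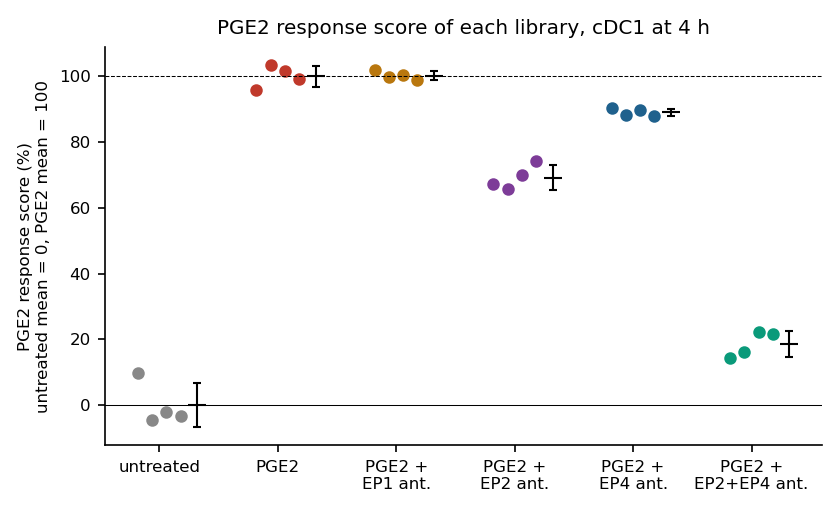
Points show the PGE2 response score in percent of each of 4 libraries for 6 groups at 4 h, with the group mean and SD beside them as a bar. The EP4 antagonist libraries sit at 88.0% to 90.3% and those labelled EP2 plus EP4 at 14.3% to 22.2%, while the EP1 antagonist libraries sit at 99.0% to 101.9%.

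Genes known to respond to cAMP and CREB held some of the largest falls. That list of 24 genes, like the other gene lists below, was chosen with earlier results of these data known. Its counts are a description and no independent evidence of direction. Of its 11 tested members, 7 fell and none rose, beside 3.42% of all genes called lower. Their median log2 fold change was -1.59 beside 0.02 over all genes, and PGE2 alone had raised 9 of them. The same count of 7 was found without EP4 antagonist A and at equal depth. The 7 were Crem, a cAMP-induced transcription factor that includes the repressor ICER, the nuclear receptor gene Nr4a2, the AP-1 genes Fos and Junb, the cAMP phosphodiesterase gene Pde4b, the transcription factor gene Nfil3, and Ramp3, which encodes a partner of calcitonin-family receptors. CREB binds the palindrome TGACGTCA or its shorter core TGACG, and the stretches upstream of 5 of these genes that hold the core on either strand are shown so that its place can be seen. The core is in capitals, CGTCA being the same core on the other strand, each stretch is written 5′ to 3′ along the gene, and coordinates and sequence are those of RefSeq on GRCm38.p6.
Nr4a2: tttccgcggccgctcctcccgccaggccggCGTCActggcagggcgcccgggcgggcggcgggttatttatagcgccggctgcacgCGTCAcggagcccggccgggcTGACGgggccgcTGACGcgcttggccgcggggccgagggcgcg
Fos: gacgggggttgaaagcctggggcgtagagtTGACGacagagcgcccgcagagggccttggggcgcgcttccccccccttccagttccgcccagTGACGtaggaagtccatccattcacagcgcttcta
Junb: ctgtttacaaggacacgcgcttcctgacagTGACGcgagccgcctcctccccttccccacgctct
Pde4b: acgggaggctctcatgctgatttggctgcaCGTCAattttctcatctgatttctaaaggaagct
Nfil3: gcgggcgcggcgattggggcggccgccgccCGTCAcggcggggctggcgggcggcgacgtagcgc
The Nr4a2 stretch is chr2:57124084-57124233 on the minus strand, with 4 cores that begin 200 to 111 bases before the start. Fos is at chr12:85473731-85473858 (plus strand, cores 129 and 66 bases before the start), Junb at chr8:84978820-84978884 (minus, 106 bases), Pde4b at chr4:102421491-102421554 (plus, 34 bases, at 1 of 4 listed starts) and Nfil3 at chr13:52981064-52981128 (minus, 59 bases). Ramp3 has no TGACG in the 250 bases before its start. None of the 6 genes in the sequence table holds TGACGTCA there. Of 4404 tested genes with an entry, 33.7% held TGACG on either strand before at least 1 listed start. TGACGTCA was held by 3.34% of them. Among the genes called lower the shares were 28.5% and 1.32% of 151, and among those called higher 16.1% and 2.15% of 93, so the called genes did not hold these letters more often than the tested genes. A match of letters is not a bound site.

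Ramp3 (chromosome 11, 6658521 to 6677475, plus strand) stood at 294, 315, 319 and 336 CPM with the EP4 antagonist and at 11, 25.0, 20.4 and 32 CPM in the group labelled EP2 plus EP4. Every library of the first group lay above every library of the second, and the log2 fold change was -3.85 ± 0.53 (SE, adjusted p = 8.79e-06). The EP2 antagonist alone had also lowered Ramp3 below PGE2 alone, by -2.31 (adjusted p = 0.00652). Pde4b, which breaks down cAMP, stood at 90.4, 167, 135 and 121 CPM against 24.2, 31.2, 23.3 and 39.4 CPM. This fall of -2.20 ± 0.29 (adjusted p = 3.43e-09) brought the group mean to 29.5 ± 7.48 CPM, beside 25.9 ± 6.65 CPM in untreated cells. Nr4a2 stood at 22.6, 47.8, 90.3 and 36.8 CPM against 2.20, 0, 14.6 and 2.46 CPM (-3.52 ± 0.55, adjusted p = 5.70e-07). Crem, at 271, 95.7, 116 and 158 CPM, lay at 11, 28.1, 20.4 and 34.5 CPM (-2.50 ± 0.50, adjusted p = 0.00132). For these genes no library of one group reached into the range of the other, although EP4 antagonist A was high for Crem and low for Nr4a2. For Nr4a2 that separation rested on 1 count, which makes up the 22.6 CPM of EP4 antagonist A. Junb fell less, from 542 to 678 CPM down to 348 to 381 CPM (-0.65, adjusted p = 0.000302). Nfil3 lost its call without EP4 antagonist C (adjusted p = 0.109), and Fos without EP4 antagonist C (0.263) or without library A, B or C of the group labelled EP2 plus EP4 (0.0527, 0.0641 and 0.0673). Pde3b (-0.92), Dusp1 (-1.27), Rgs1 (-0.66) and Rgs2 (0.75) did not pass the test.

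The receptors themselves were poorly measured. The EP2 gene Ptger2, on the plus strand of chromosome 14 from 44988195 to 45003820, stood at 67.8, 43.8, 61.3 and 47.3 CPM with the EP4 antagonist and at 24.2, 15.6, 37.9 and 17.3 CPM in the group labelled EP2 plus EP4. The libraries did not overlap, but the log2 fold change of -1.14 ± 0.41 did not pass (adjusted p = 0.0812). It passed without library C of the group labelled EP2 plus EP4 (adjusted p = 0.0439). Ptger3, the EP3 gene, stood at 30.2 ± 12.8 against 61.2 ± 3.48 CPM (adjusted p = 0.0995). Ptger4, the EP4 gene, had 3 counts in the first group and 17 in the second, and Ptger1, the EP1 gene, had 1 count in each group, so both were too low to test. Of 7 tested genes of prostaglandin receptors and enzymes only Hpgds rose, by 1.10 (adjusted p = 0.00482). Hpgds encodes the hematopoietic prostaglandin D synthase, and it lost its call without EP4 antagonist D (adjusted p = 0.0674). Of 15 genes of the G protein, adenylyl cyclase and protein kinase A machinery, Gnas rose by 0.49 (adjusted p = 0.0271) and Akap13 fell by 0.68 (adjusted p = 0.0429). The shares over all genes tested were 2.05% higher and 3.42% lower. Gnas lost its call in 5 of the fits that left out 1 library and Akap13 in 7, with adjusted p values up to 0.237 and 0.303.

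Of the 15 largest falls, 13 kept their call under every alternative. Ctla2a, a cysteine protease inhibitor gene, stood at 181, 219, 148 and 189 CPM against 17.6, 18.7, 11.7 and 17.3 CPM (-3.45 ± 0.48, adjusted p = 8.39e-06). Clec7a, the gene of Dectin-1, a receptor for fungal beta-glucan, stood at 90.4, 227, 142 and 89.4 CPM against 15.4, 12.5, 23.3 and 9.86 CPM (-3.27 ± 0.54, adjusted p = 0.000139). Scin, an actin-severing protein gene, fell from 391 ± 46.2 to 60.8 ± 13.1 CPM. Each of these 3 genes had separate ranges in the 2 groups, with untreated means of 3.90, 11.4 and 48.5 CPM. Sdcbp2 (-3.04), the C-type lectin receptor gene Clec4n (-2.84), the endocytic adaptor gene Dab2 (-2.84), the ubiquitin ligase gene Rnf125 (-2.70), the GTPase gene Rhoq (-2.41) and the gamma-secretase subunit gene Aph1c (-2.35) also fell. Rgs9, a regulator of G protein signalling, had 12 counts in the EP4 antagonist libraries and none in the other 4. Over the pooled counts of each group, with a floor of 3 counts for the second, it was at least 7.66-fold lower, or at least 6.76-fold lower without EP4 antagonist A, and it lost its call at equal depth (adjusted p = 0.124). Cd93, a lectin-like surface receptor gene, had 26 counts against 2 (adjusted p = 3.06e-05). Plaur, the urokinase receptor gene, fell by 2.75 and lost its call at equal depth (adjusted p = 0.133).

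Plet1, a surface protein gene, stood near the untreated level once the second antagonist was added. It measured at 4050, 5490, 5010 and 5310 CPM with the EP4 antagonist and at 1250, 1250, 1530 and 1530 CPM in the group labelled EP2 plus EP4 (-1.85 ± 0.24, adjusted p = 3.68e-06). The 2 groups did not overlap, and the untreated mean was 1140 ± 232 CPM. Of 19 tested genes of the PGE2 response panel, which was picked on these samples and is no independent evidence of direction, 13 fell and 1 rose. The riser was Sdc3, the syndecan-3 gene, at 0, 35.9, 29.0 and 31.5 CPM against 112, 112, 90.3 and 73.9 CPM (1.68, adjusted p = 0.000167). Cd180 (1.44, adjusted p = 0.184) and Cited2 (1.33, adjusted p = 0.0755), which PGE2 lowered, did not pass.

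**Figure D3:**
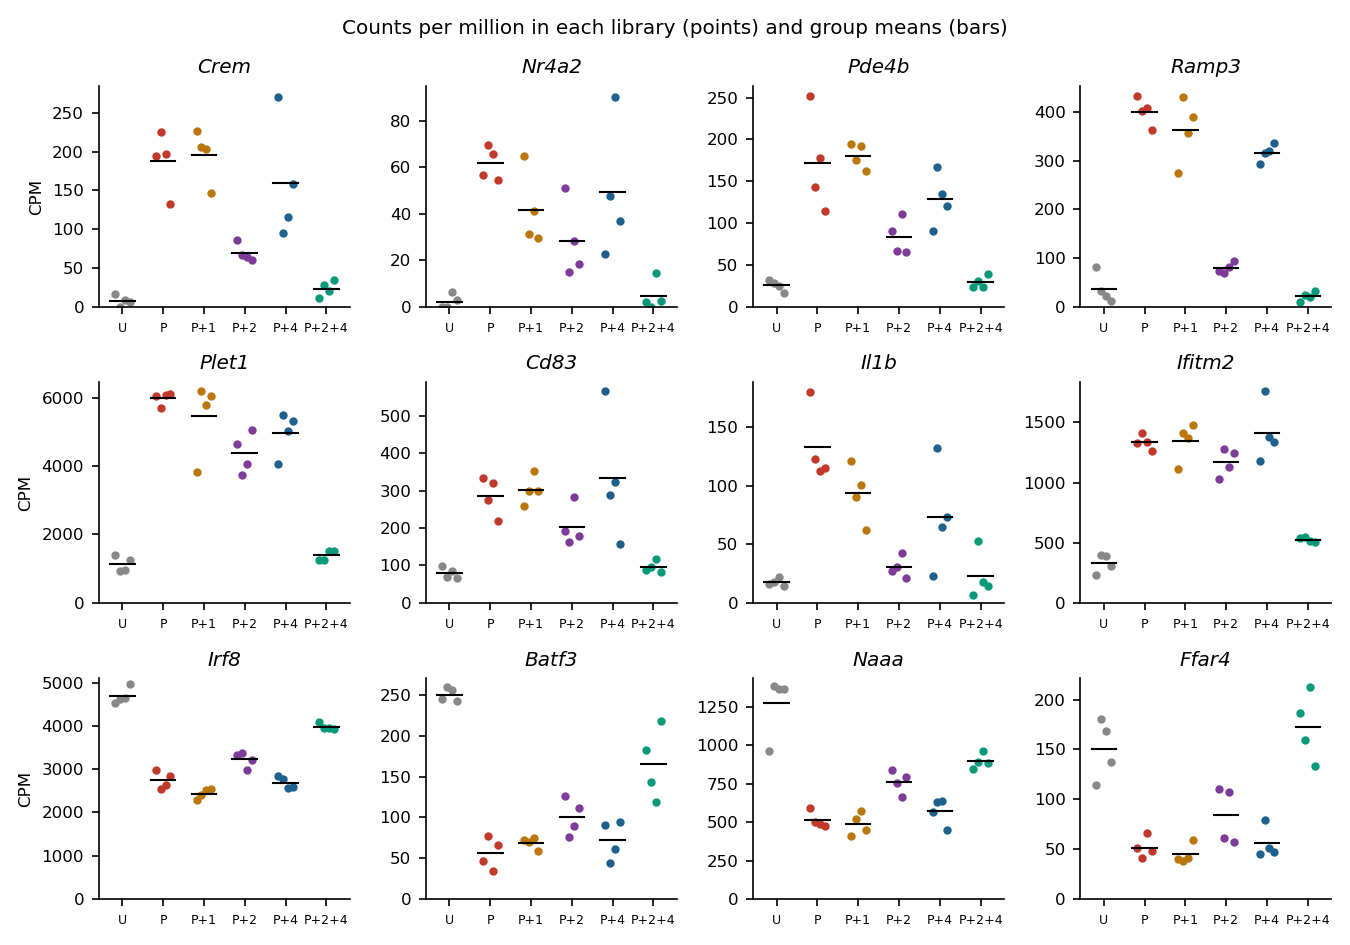
Levels (CPM) of 12 genes in each of 4 libraries (points) with the group mean (bar), on linear axes from 0, for untreated cells (U), PGE2 (P) and PGE2 with the EP1 (P+1), EP2 (P+2), EP4 (P+4) or EP2 plus EP4 (P+2+4) antagonist label. Ramp3, Plet1 and Ifitm2 remain high in P+4 and are low in P+2+4, whereas Irf8 and Ffar4 are higher in P+2+4 than in P+4.

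The test of the difference asked whether the second antagonist did more, or something else, on top of the EP4 antagonist than the EP2 antagonist did on PGE2 alone. It called 5 of 5754 genes (0.0869%), all with a more negative change under EP4 blockade, and 412 had an unadjusted p under 0.05. Ifitm2, an antiviral membrane protein gene on chromosome 7 (140954837 to 140955987, minus strand), stood at 1180, 1760, 1380 and 1340 CPM with the EP4 antagonist and at 539, 546, 518 and 505 CPM with the second one added. It was 1330 ± 59.4 CPM with PGE2 and 1170 ± 116 CPM with PGE2 and the EP2 antagonist. The group labelled EP2 plus EP4 lay below all of these, and the difference of the 2 steps was -1.26 ± 0.19 (adjusted p = 5.14e-06). Its neighbour Ifitm1 showed a difference of -0.76 (adjusted p = 0.00590), the transcriptional regulator gene Id1 of -1.09 (adjusted p = 0.00866), Rhoq of -2.12 (adjusted p = 0.0123) and Dab2 of -2.73 (adjusted p = 0.0141). Rhoq had 69 counts in the EP4 antagonist group and 24 in the group labelled EP2 plus EP4. Dab2 had 40 and 10, with no count in EP4 antagonist A, so its ranges in these 2 groups overlapped. Ifitm2 was called in all 23 alternatives, while Ifitm1 lost its call in 2, Id1 in 3, Rhoq in 5 and Dab2 in 6. The highest adjusted p values were 0.0730, 0.0832, 0.160 and 0.138. The libraries whose absence ended a call were A of the group labelled EP2 plus EP4 for Ifitm1, and EP2 antagonist A, EP4 antagonist D and library C of the group labelled EP2 plus EP4 for Id1. Ifitm3 fell in the main comparison (-1.41, adjusted p = 1.94e-05), but its difference of -1.05 did not pass (adjusted p = 0.215). The Ifitm genes are close copies of each other, so reads could be split between them.

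The EP2 antagonist on PGE2 alone called 24 genes (0.417%), 5 higher and 19 lower. It uses none of the 8 libraries of the main comparison. Of the 197 genes that fell with the second antagonist, 184 also had a negative log2 fold change for the EP2 antagonist alone, 15 of them called (0.33% of all genes were called lower), with a median of -0.41. Of the 118 that rose, 100 were positive, 3 of them called (0.0869% of all genes were called higher). For the EP1 antagonist, whose group carries the compound named in the treatment field, no gene was called by edgeR or by DESeq2, and 276 had an unadjusted p under 0.05. Of the 197, 111 were negative for the EP1 antagonist with a median of -0.02, and of the 118, 46 were positive. Across the 5754 genes, the log2 fold changes of the main comparison correlated with those of the EP2 antagonist with r = 0.345 (rho = 0.271) and with those of the EP1 antagonist with r = -0.014 (rho = -0.010). Genes are not independent replicates and the values depend on depth. Both single-antagonist comparisons share the PGE2 libraries with each other.

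Il1b, the gene of the inflammatory cytokine interleukin-1 beta, was lowered by both steps. It stood at 22.6, 132, 64.5 and 73.6 CPM with the EP4 antagonist and at 6.60, 53.0, 17.5 and 14.8 CPM in the group labelled EP2 plus EP4 (-1.96 ± 0.36, adjusted p = 3.06e-05). The libraries overlapped, EP4 antagonist A being low and library B of the other group high. The EP2 antagonist on PGE2 alone lowered it by 2.12 (adjusted p = 3.92e-06), from 133 ± 31.9 to 30.4 ± 9.17 CPM, and the difference of the 2 steps was 0.16 ± 0.53 (adjusted p = 0.984), which does not show that the steps were equal.

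Some of the genes that define cDC1 rose. Of 21 tested identity genes, 6 rose and 2 fell, beside 2.05% of all genes called higher and 3.42% called lower. Their median log2 fold change was 0.56, and PGE2 had lowered 12 and raised 1. At equal depth 4 rose and 1 fell. Irf8 (chromosome 8, 120736358 to 120756694, plus strand), the transcription factor gene on which cDC1 development depends, stood at 2830, 2770, 2560 and 2590 CPM with the EP4 antagonist and at 4090, 3960, 3940 and 3930 CPM in the group labelled EP2 plus EP4 (0.57 ± 0.11, adjusted p = 4.18e-05). The untreated mean was 4690 ± 194 CPM. Its partner Batf3 stood at 90.4, 43.8, 61.3 and 94.6 CPM against 183, 144, 119 and 219 CPM (1.34 ± 0.26, adjusted p = 5.10e-05), and untreated cells at 251 ± 8.34 CPM. For Irf8 and Batf3 the groups did not overlap. Against untreated cells the group labelled EP2 plus EP4 did not pass the test for Irf8 (-0.25, adjusted p = 0.325) or Batf3 (-0.59, adjusted p = 0.153). The lysosomal amidase gene Naaa rose by 0.63 (adjusted p = 0.00338), the lysosomal thioesterase gene Ppt1 by 1.03 (adjusted p = 0.00685), Snx22 by 1.42 (adjusted p = 0.00485) and Wdfy4, needed for cross-presentation, by 0.63 (adjusted p = 0.0462). Snx22 lost its call at equal depth (adjusted p = 0.369) and Wdfy4 in 10 of 16 alternatives, among them without EP4 antagonist C (adjusted p = 0.291) or D (0.148). Xcr1, the chemokine receptor gene of cDC1, did not pass (0.68, adjusted p = 0.159), nor did the dead-cell receptor gene Clec9a (0.09, adjusted p = 0.959). The 2 members that fell were Plet1 and Flt3, the receptor gene for the growth factor in the medium, at 249, 291, 274 and 210 CPM against 185, 162, 140 and 140 CPM (-0.72, adjusted p = 0.00382). Flt3 had not been called for PGE2 (0.16, adjusted p = 0.717) and lost its call at equal depth (-0.44, adjusted p = 0.339).

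Among the 15 largest rises, Ffar4, a receptor gene for long-chain fatty acids, stood at 45.2, 79.7, 51.6 and 47.3 CPM with the EP4 antagonist and at 187, 159, 213 and 133 CPM in the group labelled EP2 plus EP4 (1.55 ± 0.26, adjusted p = 3.82e-06). The groups did not overlap, and untreated cells stood at 150 ± 30.1 CPM. Ffar4 and Sdc3 were among the 4 of 15 that kept their call in every alternative. The other 11 were low, at 3 to 15 counts over the EP4 antagonist group. They were Bbs9, Slc9a7, Hfe, Ramp1, Themis2, Cyb5r1, Ptp4a3, Itgav, Pdgfa, Oxsr1 and Ccr2, with adjusted p values from 0.00998 to 0.0449, and each lost its call in at least 1 alternative. Ccr2, a chemokine receptor gene of monocytes, was at 90.4 CPM (4 counts) in EP4 antagonist A and at 5.26 to 15.9 CPM in the other 3.

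Maturation and inflammatory genes fell or did not pass, and none rose. Over all genes tested 3.42% were called lower and 2.05% higher. Cd83, a surface marker of mature dendritic cells, stood at 565, 287, 323 and 158 CPM against 88.0, 96.7, 117 and 81.3 CPM (-1.61 ± 0.21, adjusted p = 1.33e-08). The groups did not overlap, and the second lay near the untreated 79.2 ± 15.0 CPM. Of 10 tested maturation genes Cd83, Ccr7, the receptor for lymph node homing, and the NF-kB subunit gene Relb fell, and 1 fell without EP4 antagonist A or at equal depth. Ccr7 (-0.87, adjusted p = 0.0180) and Relb (-0.96, adjusted p = 0.0418) lost their calls without EP4 antagonist A (adjusted p = 0.0730 and 0.124), and without EP4 antagonist C (0.183 and 0.168). Without library A of the group labelled EP2 plus EP4 they were also lost (0.0964 and 0.169), and likewise without its library D (0.0745 and 0.0932). Relb lost its call without library C of that group as well (0.0953). Of 16 NF-kB targets, 5 fell and none rose, and at equal depth 3 of 15 fell. The 5 were Il1b, the adaptor gene Traf1 (-1.70, adjusted p = 2.67e-06), Tnfaip2 (-0.87, adjusted p = 9.03e-05), the inhibitor gene Nfkbie and Ier3. Nfkbie lost its call without EP4 antagonist B (adjusted p = 0.123), and Ier3 without EP4 antagonist D (0.253) or library A of the other group (0.0591).

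Of 10 tested cytokine and chemokine genes, Cxcl16 fell from 587 ± 126 to 313 ± 65.9 CPM (-0.83, adjusted p = 9.66e-06) and Ccl22 from 293 ± 174 to 140 ± 26.3 CPM (-0.81, adjusted p = 0.00605), beside 3.42% of all genes called lower. Ccl22 lost its call without EP4 antagonist A (adjusted p = 0.0558) or C (0.109). Il12b, the gene of the interleukin-12 p40 subunit, stood at 497, 71.7, 323 and 68.3 CPM against 35.2, 103, 114 and 41.9 CPM and did not pass (adjusted p = 0.0568). It passed with DESeq2 (adjusted p = 0.0251), without EP4 antagonist B (0.0117) or D (0.0157), and without library C of the other group (0.0376). The T cell attractant genes Cxcl9 (-0.39, adjusted p = 0.840) and Cxcl10 (-0.24, adjusted p = 0.893) did not pass. EP4 antagonist A was the highest of its 4 libraries for Il12b, Cxcl9, Cxcl10, Cxcl16, Ccr7, Ccl22, Cd83, Relb, Traf1 and Tnfaip2. The part of that library in those levels was not tested beyond the fits without it. Cxcl16 (769 CPM in that library) and Tnfaip2 (452 CPM) kept their calls in every alternative.

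Ccl17, a chemokine gene that PGE2 raised by 1.26, was not called here. It stood at 1060, 1130, 1280 and 778 CPM with the EP4 antagonist and at 937, 1010, 1120 and 821 CPM in the group labelled EP2 plus EP4 (-0.14 ± 0.13, adjusted p = 0.674). The ranges overlapped, and the second group remained above untreated cells at 425 ± 54.8 CPM by 1.17 (adjusted p = 1.93e-09). That call held in every alternative run. The group labelled EP2 plus EP4 differed from untreated cells in 46 genes (0.799%), 35 higher and 11 lower, and the EP4 antagonist group in 402 (6.99%), 241 higher and 161 lower. The 46 fell to 15 without untreated library C, and also to between 21 and 27 without untreated A or B or libraries B, C or D of the group labelled EP2 plus EP4. Among the named genes, Ifitm2 (0.59, adjusted p = 0.0338) was higher, and Naaa (-0.56, adjusted p = 0.0243) and Cd180 (-1.49, adjusted p = 0.0474) were lower than in untreated cells. Each of these 3 lost its call in 6 or more of the fits that left out 1 library, with adjusted p values up to 0.161, 0.119 and 0.250.

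Most antigen presentation genes did not pass the test, beside 2.05% of all genes called higher and 3.42% called lower. The class II chain genes H2-Aa (-0.03), H2-Ab1 (-0.06) and H2-Eb1 (0.01) and the invariant chain gene Cd74 (-0.08) were among them. H2-DMa, which encodes a chain of the peptide exchange factor, rose from 949 ± 117 to 1430 ± 41.5 CPM (0.57, adjusted p = 0.000369), and H2-DMb1, its partner, from 884 ± 93.0 to 1300 ± 53.8 CPM (0.52, adjusted p = 0.00188, lost at equal depth with 0.0761). Ctss, the protease gene of invariant chain processing, fell from 1190 ± 59.9 to 813 ± 47.7 CPM (-0.55, adjusted p = 0.000472). Of 11 class I genes only Tapbp was called (0.50, adjusted p = 0.0417), and it lost its call in 5 fits that left out 1 library, with adjusted p values up to 0.340.

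Few genes passed the test in lists of more general processes, beside 2.05% of all genes called higher and 3.42% called lower. None of 21 proliferation, 15 survival and apoptosis, 12 stress response or 6 mitochondria-encoded genes was called. Of 12 interferon-stimulated genes Gbp2 fell (-0.82, adjusted p = 0.0132), of 14 cholesterol synthesis genes Fdps rose (1.43, adjusted p = 0.000250), and of 13 glycolysis genes Gpi1 rose (0.47, adjusted p = 0.0410). Gbp2 lost its call without EP4 antagonist C (adjusted p = 0.116) or D (0.0740) and without library B of the other group (0.0596). Gpi1 lost its own without EP4 antagonist B (adjusted p = 0.316), without library C of the other group (0.219) and in 4 more such fits.

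Markers of macrophages and monocytes moved with the group. Their summed level was 1010 to 1320 CPM with the EP4 antagonist and 1420 to 1840 CPM in the group labelled EP2 plus EP4, beside 965 to 1570 CPM in untreated cells. Lyz2 (0.46, adjusted p = 0.0159) and Ccr2 (1.55, adjusted p = 0.0223) rose, but Lyz2 lost its call without EP4 antagonist A (adjusted p = 0.0560) or D (0.170) and Ccr2 without EP4 antagonist C (0.164) or D (0.152). In all, 5 of 15 listed genes in the table were tested, and 7 and 5 of the 15 had no count in the 2 groups. Over all genes tested 2.05% were called higher. In bulk libraries more cells of a type and more RNA per cell cannot be told apart, and the part of these markers in the other rises was not tested.

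**Figure D4:**
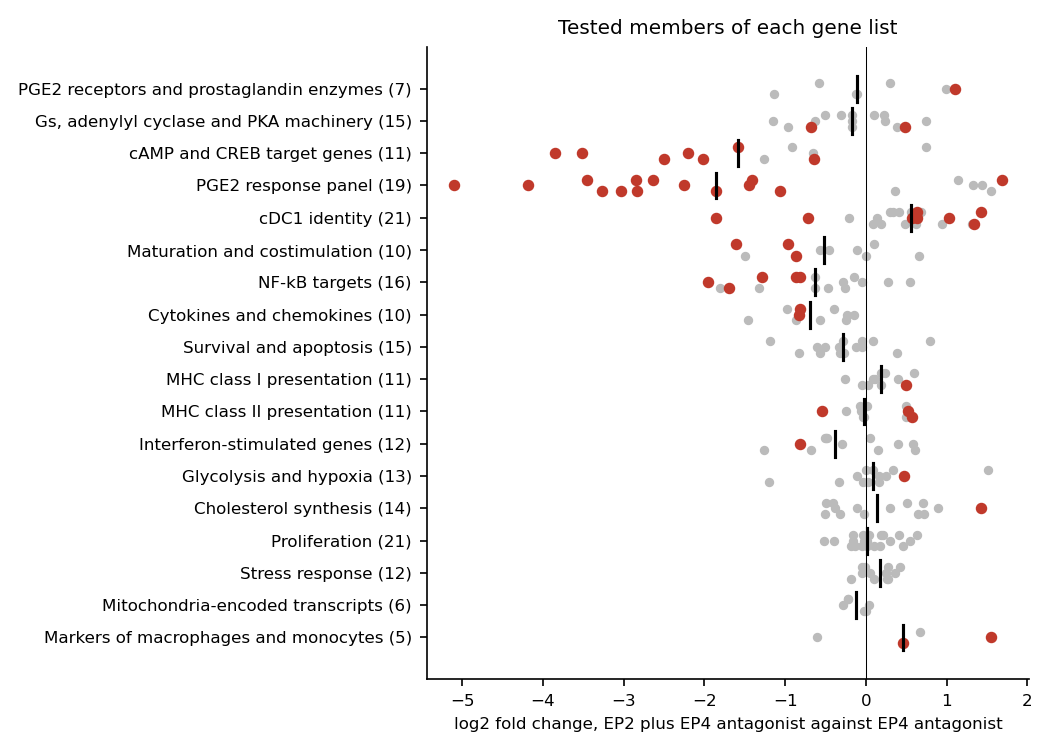
Each point is the log2 fold change of 1 tested gene between the group labelled EP2 plus EP4 antagonist and the EP4 antagonist group, arranged by gene list with the number of tested members; red points passed the test and the bar is the list's median. The cAMP and PGE2 response lists lie at medians of -1.59 and -1.85, the cDC1 identity list at 0.56 and the proliferation list at 0.02.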

How the data were processed

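Bulk 3' RNA-seq libraries with molecular identifiers were made from poly(A) RNA and sequenced on a NextSeq 500, per the labels' protocols. The authors deposited raw counts per gene, made with the Drop-seq pipeline on GRCm38 with ENSEMBL annotation release 75, per the labels' protocols; the submitters' processing notes name GRCm38.p6 and DESeq2 1.14.1. For the aligner, and for whether strand was used, the sources used here give nothing, so antisense partners cannot be told apart. Of 23136 lines, 1 with a text entry was left out, and 20 with date-like names (0.105% of counts) were kept unnamed.

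The members, gene lists and the naming rule were chosen with earlier results of these data known. Counts were fitted with edgeR 4.0.16 (R 4.3.3, TMM scaling, its expression filter, robust quasi-likelihood test, Benjamini-Hochberg adjustment over 5754 genes) on all 36 libraries at 4 h in 9 groups. All 9 groups share 1 estimate of the spread, among them the EP3 antagonist group. Library B of that group stood apart, with a response score of 50% beside 96.8%, 97.9% and 99.4% in A, C and D. Its part in the calls was not tested on its own. CPM are counts scaled to a TMM-adjusted library total of 1000000. Fold changes are log2 with SE, levels mean ± SD of 4 libraries. The SE was back-calculated as the absolute log2 fold change divided by the square root of the test's F value. Named genes were the 15 largest falls and rises with at least 20 CPM in 1 group, up to 3 called genes per list and direction, a set panel and up to 10 genes of the difference test; further list members were named after their values were seen. The labels call the letters A to D biological replicates without saying that they were separate animals or cultures, so p-values cover only the spread among these libraries, which may be technical. Correlations of the deviations of same-letter libraries were between -0.014 and 0.094 over 2854 genes, so letters were not treated as pairs. Replicates differed by 1.57 to 2.13 times sampling noise (chi-square per degree of freedom), and none was a duplicate. Counting error sets a floor of 3 counts, 6.60 to 67.8 CPM over the 8 libraries.

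On simulated counts for the main comparison over 5754 genes, 14% of 50 genes changed by 0.5, 62% by 1, 90% by 2 and 100% by 3 (log2) were called in the right direction, with 3 false calls of 136. The changed genes were drawn only from genes above a minimum expected count, so these rates do not cover genes near the floor. Alternatives were DESeq2 1.42.0, other scalings, no filter, fewer groups, the letter as a block, the shallow or each single library left out and, added after seeing the data, equal depth without EP4 antagonist A and a score without 1 conditioned-medium library. Promoter letters came from the RefSeq table. Some genes that the naming rule picked are not reported here.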

Additional observations from a re-analysis of the deposited data

Results flagged for a closer look

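In all, 5 genes differed between the step from EP4 antagonist to the group labelled EP2 plus EP4 and the step from PGE2 to EP2 antagonist, by a test of the difference itself: Ifitm2 (-1.26), Ifitm1 (-0.76), Id1 (-1.09), Rhoq (-2.12) and Dab2 (-2.73), all log2. All 5 were among the 140 genes (2.43% of all genes tested) raised by control against Ptgs-deficient conditioned medium. Of those 140, 98 fell in the main comparison.

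In 17 of 154 groups of 4 values checked, 1 library lay far from the other 3; chance flags about 1 group in 20. In the EP4 antagonist group, library A was high for Cxcl9 (249 CPM, 11 counts), Cxcl10 (181 CPM, 8 counts) and Ccr2 (90.4 CPM, 4 counts) and low for H2-DMb1 (746 CPM). It was also flagged as high for Hfe, but that value of 22.6 CPM is 1 count. Library B was low for Rnf125 (31.9 CPM) and high for Nr4a1 (19.9 CPM, 5 counts). Library C held the only counts of Slc9a7 (9.68 CPM) and Ptger1 (3.23 CPM), and library D was low for Rhoq (68.3 CPM). In the group labelled EP2 plus EP4, library C was high for Nr4a2 (14.6 CPM), Cxcl16 (411 CPM), Gpi1 (527 CPM) and Cxcl9 (58.3 CPM). Library B was high for Fdps (178 CPM) and held the only count of Ptger1 (3.12 CPM), and library D was high for Clec4n (12.3 CPM).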

How the results depend on the processing

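Adding the second antagonist called 315 genes. The count was 319 with DESeq2-type size factors in edgeR, 358 with totals alone, 248 without the filter, 317 with only the groups compared, 285 without the shallow libraries EP4 antagonist A and untreated A, and 260 with DESeq2. It was 203 at equal depth without EP4 antagonist A (185 shared with the 315) and 205 to 284 when 1 library was left out. With the replicate letter as a block it was 331, of which 306 were shared, and the letters share only a name. The 5 genes of the difference test became 10 without the filter, 28 with only the groups compared, 8 with the replicate block and 12 with DESeq2, and 3 to 8 with 1 library left out; it was 3 without EP2 antagonist A, EP4 antagonist C or libraries A or C of the group labelled EP2 plus EP4, and 8 without EP4 antagonist D. The 24 genes of the EP2 antagonist became 82 with only the groups compared and 7 to 20 with 1 library left out. The 46 genes against untreated cells became 29 with totals alone, 75 with only the groups compared, 24 without the shallow libraries and 15 to 40 with 1 library left out. The 402 genes of the EP4 antagonist against untreated cells ran from 304 to 400. The EP1 antagonist gave 0 in every setting. The cause of these shifts was not tested. A score built on PGE2 against untreated cells gave 82.9% and 25.3% in place of 89.1% and 18.5%; with 1 library left out the values were 88.6% to 89.4% and 17.3% to 19.9%. No gene described in the main comparison changed direction with a call; of 104 called genes, 54 kept their call in all alternatives that could test them and 50 lost it in at least 1. Depth limits the genes near the floor: 1 count is 22.6 CPM in EP4 antagonist A and 2.20 to 5.26 CPM in the other 7 libraries.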

Other observations

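The genes and groupings here were picked after their values were seen, and a count over them is a description. Genes of iron storage and of the response to oxidants, many of them known targets of the transcription factor NRF2, were lower in the group labelled EP2 plus EP4. Of 22 tested, 14 fell and none rose, beside 3.42% of all genes called lower, with a median log2 fold change of -0.96. PGE2 alone had raised 14 of the 22. Of the 14 that fell, 8 kept their call in every alternative, while G6pdx lost it in 6, Sqstm1 in 4, Gsr and Nfe2l2 in 3, Prdx1 in 2 and Blvrb in 1. Fth1, the ferritin heavy chain gene (chromosome 19, 9980598 to 9985098, plus strand), was among the most abundant transcripts of these cells. It stood at 38900, 40000, 37500 and 40500 CPM with the EP4 antagonist and at 14900, 16400, 18600 and 19200 CPM with the second antagonist (-1.18 ± 0.20, adjusted p = 0.000141), beside 11700 ± 676 CPM in untreated cells. The groups did not overlap. Srxn1, the sulfiredoxin gene, stood at 90.4, 71.7, 77.4 and 78.9 CPM against 15.4, 6.24, 17.5 and 19.7 CPM (-2.32, adjusted p = 6.14e-06). The quinone reductase gene Nqo1 (-1.69, adjusted p = 0.000402), Txnrd1 (-0.91, adjusted p = 0.000214) and Pgd (-0.98, adjusted p = 0.000658) fell as well. Hmox1, the heme oxygenase gene, stood at 136, 112, 123 and 110 CPM against 39.6, 53.0, 35 and 32 CPM (-1.55, adjusted p = 0.000150). PGE2 alone had not changed Hmox1 beyond the threshold (0.99, adjusted p = 0.107), nor Osgin1 (0.88, adjusted p = 0.0632), which fell by 1.52 (adjusted p = 3.69e-05). Nfe2l2 itself, which encodes NRF2, fell by 1.32 (adjusted p = 0.0122) but lost its call without EP4 antagonist B (adjusted p = 0.188), without library D of the other group (0.0627) and at equal depth (0.187). Txn1, Prdx6, Cat, Tkt, Taldo1, Gclm, Gclc and Keap1 did not pass. Ferritin genes have processed copies that could share reads.

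Csf2rb, the shared signalling chain of the receptors for GM-CSF, interleukin-3 and interleukin-5, stood at 2060, 2400, 2150 and 2190 CPM against 1080, 970, 1110 and 1190 CPM (-1.03, adjusted p = 1.15e-09). Its close copy Csf2rb2 fell by 0.81 (adjusted p = 4.80e-06), and reads could be split between them. The GM-CSF specific chain gene Csf2ra did not pass (0.41, adjusted p = 0.264). The cell cycle inhibitor gene Cdkn1a fell from 904, 801, 1010 and 841 CPM to 396, 434, 516 and 493 CPM (-0.95, adjusted p = 1.06e-08). Myc, at 67.8, 43.8, 48.4 and 31.5 CPM, rose to 106, 115, 151 and 98.6 CPM (1.40, adjusted p = 0.000346), and the cyclin gene Ccnd1 rose by 0.59 (adjusted p = 0.000829). The ranges did not overlap for Csf2rb, Csf2rb2, Cdkn1a, Myc and Ccnd1, while none of the 21 proliferation genes was called. Of 19 tested genes of translocation and folding in the endoplasmic reticulum, 9 rose and none fell, beside 2.05% of all genes called higher. PGE2 alone did not call 8 of the 9, nor 57 of all 118 genes called higher. Of the 9, Ssr1 lost its call in 10 of 16 alternatives, Erp29 in 7, Dnajb14 and Selenos in 4, Spcs2 in 2 and Ddost in 1. The other 3 kept theirs in all 16. Of these, Serp1 rose by 1.27 (adjusted p = 0.000250), Creld2 by 0.57 (adjusted p = 0.00141) and Tmed3 by 0.75 (adjusted p = 0.00275).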
